A study of Mus musculus with 15 samples.

Results

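Gid8, Wdr35, Cacnb3 and Slc39a11 are 4 of the 12380 named mouse genes measured in every heart library of a study of angiotensin II and QDG, and they were picked for their low values in the AngII+QDG libraries. The choice used the FPKM of each transcript (fragments scaled to the transcript's length and the library's depth) and the gene sum, in AngII+QDG set against AngII. Their values in these libraries are therefore given as a description, with no test. All 4 passed the filter for testing, at least 0.5 FPKM in at least 5 of 15 libraries, as did 12258 genes in all.

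The hearts came from male C57BL/6 mice, with no allele or transgene named in the labels, and rRNA-depleted total RNA was sequenced. The 15 libraries formed 3 groups of 5: Control, AngII, and AngII and QDG together, called AngII+QDG here. AngII, or angiotensin II, is a pressor peptide that also drives growth and fibrosis of the heart, and the series title says that it was infused. The labels give QDG only by its abbreviation, and the labels used here state no age, dose or duration. No group received QDG without AngII.

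The 4 genes work in unrelated systems. Gid8 is a scaffold subunit of the CTLH complex, a ubiquitin ligase built from RING and LisH-CTLH proteins that marks proteins for degradation. Wdr35, also called IFT121, belongs to intraflagellar transport complex A, which carries cargo back along the axoneme of primary cilia and helps membrane proteins into them. Cacnb3 is a cytoplasmic beta subunit of voltage-gated calcium channels, which brings the pore-forming subunit to the membrane and tunes its gating. In cardiomyocytes the main partner of the pore is usually Cacnb2. Slc39a11, or ZIP11, is a zinc importer of the SLC39 family, which moves zinc into the cytosol and is opposed by the SLC30 exporters.

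The genes lie on 4 chromosomes of the GRCm38 build. Gid8 (ENSMUSG00000027573) spans chr2:180710117-180718733 on the plus strand and Wdr35 (ENSMUSG00000066643) spans chr12:8973892-9028847 on the plus strand. Cacnb3 (ENSMUSG00000003352) spans chr15:98630840-98644529 on the plus strand and Slc39a11 (ENSMUSG00000041654) spans chr11:113244853-113650079 on the minus strand. The files listed 2 of 3 annotated transcripts of Gid8, 2 of 7 of Wdr35, 2 of 7 of Cacnb3 and 1 of 8 of Slc39a11. All of the listed transcripts are protein coding. Wdr35-202 and Cacnb3-201 were listed in the Control and AngII files and were not analysed in AngII+QDG, where the files used here hold no row for them. A gene sum over all rows thus adds those transcripts in 2 of the 3 groups, and each gene is also given over rows found in all 15 files. If such a row is missing because the transcript was undetected in AngII+QDG, the sum over all rows is the gene's value there; if it is missing for another reason, that sum understates it. The sources used here do not say which, so both values are given.

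The listed transcripts of a gene are closely alike in sequence. Wdr35-201 (4501 nt, 28 exons) holds every exonic base of Wdr35-202 (4312 nt, 27 exons) plus 189 nt, of which 33 are coding. Those 33 are exon 11 of Wdr35-201, chr12:8995640-8995672, which adds 11 codons in frame. The Cacnb3 transcripts share 2287 nt, 83.7% of Cacnb3-201 (2734 nt) and 91.0% of Cacnb3-202 (2513 nt). They differ in the first coding exon, chr15:98635169-98635213 in Cacnb3-201 and chr15:98632479-98632520 in Cacnb3-202, and in exon 7 of Cacnb3-202, chr15:98641177-98641257. These coding stretches are the sequence that can tell the transcripts apart within the protein. They are shown in capitals from the GRCm38 plus strand, with the bases that adjoin them in the spliced transcript in lower case.
Wdr35-201 exon 11: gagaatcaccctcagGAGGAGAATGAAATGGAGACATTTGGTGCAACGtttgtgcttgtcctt
Cacnb3-201 first coding exon: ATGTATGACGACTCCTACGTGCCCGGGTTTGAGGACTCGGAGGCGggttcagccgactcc
Cacnb3-202 first coding exon: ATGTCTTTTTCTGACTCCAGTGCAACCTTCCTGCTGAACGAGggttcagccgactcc
Cacnb3-202 exon 7: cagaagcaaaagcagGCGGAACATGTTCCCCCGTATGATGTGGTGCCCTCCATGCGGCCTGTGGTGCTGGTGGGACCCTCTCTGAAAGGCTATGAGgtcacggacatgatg

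**Figure D1:**
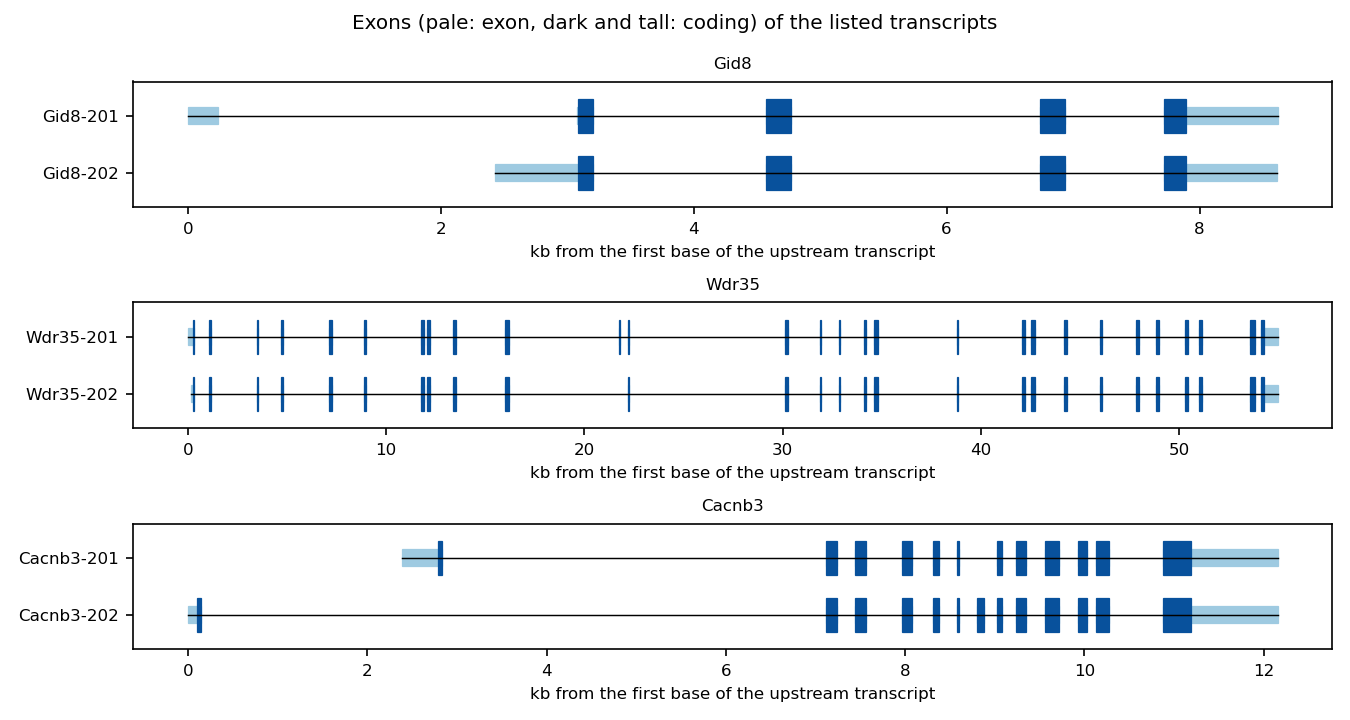
Exon models of the listed transcripts of Gid8, Wdr35 and Cacnb3, drawn in kb from the first base of the more upstream transcript, with pale boxes for exons, tall dark boxes for coding sequence and outlines that widen the thinnest exons. The 2 transcripts of Gid8 share all 684 coding nt and differ at the 5′ end, those of Wdr35 differ by a 33-nt coding exon, and those of Cacnb3 start at different first exons.

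Gid8-201 (1655 nt, 5 exons) and Gid8-202 (2063 nt, 4 exons) share all 684 coding nt and differ in their 5′ UTR, so no coding read tells them apart. Their starts lie apart in sequence of unlike composition. The RefSeq promoter window (GRCm38.p6, 250 bases before to 50 after a start) near Gid8-201, chr2:180709976-180710275, is 65.0% GC, and that at the start of Gid8-202, chr2:180712296-180712595, is 43.7% GC, beside a median of 52.7% over 32851 promoters. The former held 4 GC boxes (GGGCGG) and 1 CCAAT box (CCAAT), and the latter held neither. Matches were sought on both strands, overlaps included, and are in capitals below. A GC box was found in 35.7% and a CCAAT box in 37.4% of all promoters. The Cacnb3 windows are chr15:98632078-98632377 near Cacnb3-202 (59.7% GC, 1 GC box, 1 CCAAT box) and chr15:98634517-98634816 at the start of Cacnb3-201 (72.0% GC, 4 GC boxes). Both pairs are shown because the listed transcripts of these genes begin at separate starts.
Gid8-201 promoter: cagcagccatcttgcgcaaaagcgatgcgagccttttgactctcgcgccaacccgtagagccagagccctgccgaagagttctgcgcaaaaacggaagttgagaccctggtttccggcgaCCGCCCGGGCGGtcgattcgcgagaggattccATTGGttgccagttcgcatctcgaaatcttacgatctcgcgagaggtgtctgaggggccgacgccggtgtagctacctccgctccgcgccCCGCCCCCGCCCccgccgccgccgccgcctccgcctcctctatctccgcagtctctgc
Gid8-202 promoter: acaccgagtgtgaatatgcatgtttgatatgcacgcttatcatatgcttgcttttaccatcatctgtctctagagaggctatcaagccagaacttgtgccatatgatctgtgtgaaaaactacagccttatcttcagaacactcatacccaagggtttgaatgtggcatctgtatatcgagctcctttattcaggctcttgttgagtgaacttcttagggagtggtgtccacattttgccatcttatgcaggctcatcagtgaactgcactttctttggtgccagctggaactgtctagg
Cacnb3-202 promoter: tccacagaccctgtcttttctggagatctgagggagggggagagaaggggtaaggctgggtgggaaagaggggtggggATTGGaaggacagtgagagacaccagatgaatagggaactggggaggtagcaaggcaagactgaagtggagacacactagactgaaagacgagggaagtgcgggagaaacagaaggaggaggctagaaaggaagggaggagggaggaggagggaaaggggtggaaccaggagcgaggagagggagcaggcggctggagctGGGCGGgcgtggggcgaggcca
Cacnb3-201 promoter: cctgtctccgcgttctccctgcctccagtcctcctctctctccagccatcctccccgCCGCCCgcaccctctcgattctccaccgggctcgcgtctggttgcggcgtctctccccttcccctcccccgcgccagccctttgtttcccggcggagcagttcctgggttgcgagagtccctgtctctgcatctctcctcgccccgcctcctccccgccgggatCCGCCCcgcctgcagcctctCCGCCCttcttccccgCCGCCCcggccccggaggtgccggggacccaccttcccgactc

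The Wdr35 window, chr12:8973751-8974050, is 60.0% GC with 3 GC boxes and 1 CCAAT box. The Slc39a11 window nearest the listed transcript, chr11:113565766-113566065 on the minus strand, is 56.7% GC with 2 GC boxes and 1 E-box (CACGTG), a motif found in 7.15% of promoters. The other motifs sought were TATAAA, found in 13.6% of promoters, and the AP-1 motif TGANTCA, found in 7.81%. Neither had a match in the windows of the 4 genes. These are matches of letters only.

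Gid8 had the highest FPKM of the 4 genes in all 3 groups, and its AngII+QDG libraries lay below every other library. Its gene sum was 6.39, 4.15, 8.63, 5.17 and 9.71 FPKM in Control 1 to 5 and 14.4, 7.50, 5.07, 12.4 and 5.40 in AngII 1 to 5. In AngII+QDG 1 to 5 it was 1.22, 2.07, 1.49, 1.32 and 3.87 FPKM. The highest AngII+QDG library was thus under the lowest Control library, 4.15 FPKM, and under the lowest AngII library, 5.07 FPKM. Group means were 6.81 ± 2.33, 8.95 ± 4.22 and 1.99 ± 1.10 FPKM (SD, n = 5 each). The difference of AngII+QDG from AngII on the log2(FPKM + 1) scale, which understates changes of low genes, was -1.69 (SE 0.30), the 4th lowest of 12258 genes. From Control it was -1.40 (SE 0.30).

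Most of the Gid8 difference sat in Gid8-202. Gid8-202 gave 2.72, 3.98, 4.46, 5.03 and 9.56 FPKM in Control 1 to 5 and 14.2, 5.94, 1.80, 12.3 and 2.46 in AngII 1 to 5. In AngII+QDG 1 to 5 it gave 1.20, 0.862, 1.48, 1.31 and 1.36 FPKM, all below the lowest Control or AngII library. Gid8-201 behaved otherwise, with high and low libraries in every group. It gave 3.67, 0.173, 4.17, 0.141 and 0.158 FPKM in Control 1 to 5, and 0.192, 1.55, 3.27, 0.15 and 2.94 in AngII 1 to 5. In AngII+QDG 1 to 5 it gave 0.0115, 1.21, 0.00978, 0.0117 and 2.52 FPKM. AngII+QDG 1, 3 and 4 each held 1 fragment of Gid8-201, counted as below, while AngII+QDG 2 and 5 overlapped both other groups.

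Wdr35 was low in 3 of the 5 AngII+QDG libraries, and what its gene sum shows depended on a transcript listed only for the other groups. Wdr35-201 gave 1.78, 1.42, 1.12, 2.08 and 1.02 FPKM in Control 1 to 5. It was listed at 0 in AngII 1 and gave 0.0135, 1.90, 2.08 and 1.79 FPKM in AngII 2 to 5. In AngII+QDG 1 to 5 it gave 0.721, 0.00581, 0.0036, 1.05 and 0.00303 FPKM. So 2 AngII libraries, with 0 and 4 fragments, were also near 0 in this transcript, as were AngII+QDG 2, 3 and 5, and AngII+QDG 4 lay within the Control range.

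In the 2 AngII libraries that were low in Wdr35-201, the other transcript was present. Wdr35-202 gave 2.72 FPKM in AngII 1 and 2.67 in AngII 2, and it was listed at 0 in AngII 3, 4 and 5 and in all 5 Control libraries. The sum over all rows was therefore even across AngII, at 2.72, 2.68, 1.90, 2.08 and 1.79 FPKM. In the order Control, AngII, AngII+QDG, that sum had means of 1.48 ± 0.446, 2.24 ± 0.439 and 0.357 ± 0.497 FPKM (SD, n = 5 each), with Wdr35-201 the only row behind the last value. AngII+QDG minus AngII was -1.32 (SE 0.21) over all rows, without overlap, and -0.56 (SE 0.34) over rows in all 15 files, with overlap. The level of Wdr35-202 in the AngII+QDG libraries was not analysed here, and which of these differences applies depends on why its row is missing.

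Cacnb3 was listed at 0 in 4 of 5 AngII+QDG libraries through its only transcript with a row there. Cacnb3-202 gave 2.75, 2.47, 0.230 and 0.633 FPKM in Control 1 to 4 and was listed at 0 in Control 5. It gave 0.0703, 2.01, 0.740 and 1.16 FPKM in AngII 1, 2, 3 and 5 and was listed at 0 in AngII 4. In AngII+QDG it was listed at 0 in libraries 1 to 4 and gave 0.125 FPKM in library 5, a count of 23 fragments. Libraries at 0 thus occurred in all 3 groups, and the highest libraries of Control and AngII stood far above the 1 AngII+QDG library with a value.

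Where Cacnb3-202 was low in Control or AngII, Cacnb3-201 was usually present. Cacnb3-201 gave 0.0613 FPKM in Control 1, was listed at 0 in Control 2, and gave 1.14, 0.903 and 1.61 FPKM in Control 3 to 5. In AngII 1 to 5 it gave 0.950, 0.0221, 0.985, 0.311 and 0.892 FPKM. Summed over both, Control libraries held 2.81, 2.47, 1.37, 1.54 and 1.61 FPKM and AngII libraries 1.02, 2.03, 1.73, 0.311 and 2.05. All 10 of these sums exceeded 0.125 FPKM, the highest AngII+QDG value, but only 1 of the 2 transcripts stood in the AngII+QDG sum. AngII+QDG minus AngII was -1.18 (SE 0.21) over all rows and -0.68 (SE 0.37) over rows in all 15 files, where the groups overlapped. From Control the differences were -1.50 (SE 0.21) and -0.91 (SE 0.37).

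Slc39a11 had the lowest mean FPKM of the 4 genes in Control and AngII, and it was listed at 0 in 4 AngII+QDG libraries. Slc39a11-201 (2781 nt, 11 exons), its 1 listed transcript and present in all 15 files, gave 0.624, 0.542, 0.761, 0.784 and 0.311 FPKM in Control 1 to 5. In AngII 1 to 5 it gave 1.04, 0.746, 0.686, 1.29 and 1.15 FPKM. In AngII+QDG only library 3 had a value, 0.640 FPKM, within the Control range and just under the lowest AngII library. Counted as fragments, this was 110 in AngII+QDG 3, beside 63 to 159 in Control and 119 to 275 in AngII. The difference of AngII+QDG from AngII was -0.83 (SE 0.15), the 87th lowest of 12258 genes, and from Control it was -0.53 (SE 0.15). Control means of 0.604 ± 0.192 FPKM and AngII means of 0.982 ± 0.260 FPKM (SD, n = 5 each) differed by 0.30 (SE 0.15) on the log2 scale.

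**Figure D2:**
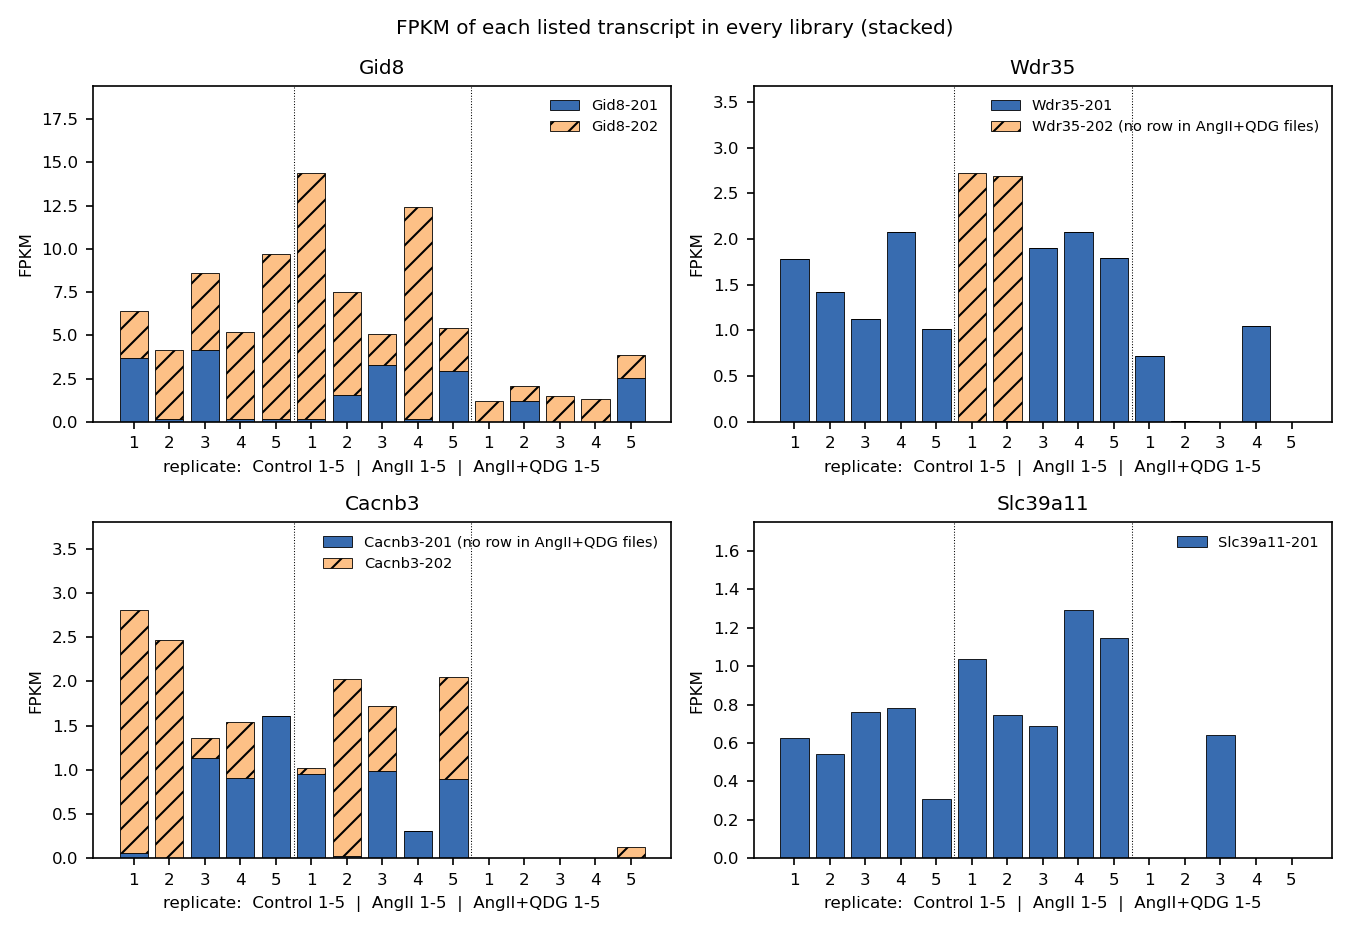
FPKM of each listed transcript, stacked, in every library of Control, AngII and AngII+QDG for the 4 genes, with linear axes from 0 that differ between genes. The AngII+QDG bars of Gid8 stay at or below 3.87 FPKM, those of Cacnb3 at or below 0.125, and 4 of 5 bars of Slc39a11 are at 0; transcripts without a row in the AngII+QDG files cannot add to the bars there.

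The low AngII+QDG values rested on unlike numbers of fragments in the 4 genes. Each FPKM value of the 4 genes, multiplied by transcript length and library depth, gave a whole number, read here as fragments. Gid8-202 was behind 130 to 205 fragments in AngII+QDG and 231 to 1932 in AngII. Wdr35-201 was behind 1 or 2 fragments in AngII+QDG 2, 3 and 5 and 170 and 244 in AngII+QDG 1 and 4. In units of 1000000 fragments, and if 1 step is 1 fragment, depth was 51.6 to 78.3 over the 15 libraries and 51.6 to 76.5 within AngII+QDG. The libraries in which a gene was listed at 0 included the deepest AngII+QDG library, number 2, for both Cacnb3 and Slc39a11.

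A value of 0 in these files need not mean absent RNA. The housekeeping gene Gusb was listed at 0 in 1 library as a gene sum, and of 36 transcripts of 15 housekeeping genes, 12 were at 0 in at least 1 library. Alternation between transcripts was also common: of 5422 tested genes with at least 2 transcripts in the Control and AngII files, 3392 (62.6%) changed their leading transcript among those 10 libraries. In bulk tissue, fewer cells of a type and less RNA per cell cannot be told apart. Marker genes of heart muscle were high throughout, with a summed 12797 to 22896 FPKM for 7 of 8 markers, and the group ranges overlapped. Ttn was the marker not analysed here. Red cell markers, of which the 5 listed include the globin genes, summed to 3795 to 12221 FPKM in Control, 2198 to 9324 FPKM in AngII, 2698 to 9472 FPKM in AngII+QDG, with overlap. No tested marker of the cell types examined was called between AngII+QDG and AngII, where no gene was. Against Control, 1 of 5 red cell markers, Hba-a2, was called lower in AngII+QDG (difference -2.78, SE 0.80, limma adjusted p = 0.0268). Called higher in that comparison were 2 of 6 fibroblast, 1 of 6 endothelial, 1 of 6 macrophage and 1 of 2 Schwann and neuron markers. Over all genes, 16.1% were called higher and 3.31% lower.

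Set among all genes, no gene was called between AngII+QDG and AngII (0.0% of 12258, limma with Benjamini-Hochberg adjustment at 0.05). At an unadjusted p under 0.05 there were 579 genes (4.72%), and limma voom on the recovered fragments called 1, Thsd7a, which was higher. The 4 genes ranked 1 to 4 by p in this comparison and shared its smallest adjusted p, and since they were chosen on this contrast nothing is read from it. All 4 were lower in every AngII+QDG library than in any AngII library over all rows, as were 0.799% of tested genes. Over rows in all 15 files this held for 2 of 4, Gid8 and Slc39a11, beside 0.727% of genes. Against Control, 2 of 4 lay apart over all rows, Gid8 and Cacnb3, beside 1.73% of genes, and 1 of 4, Gid8, over rows in all 15 files, beside 1.66%. Over all rows, 12 tested genes (0.0979%) were below both other groups in every AngII+QDG library. Gid8 and Cacnb3 were among them by their values above, and since they were chosen for low values nothing is read from it. Over rows in all 15 files Cacnb3 overlapped both other groups.

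No test of the 4 genes against Control is given, since the AngII+QDG and the AngII libraries were both used to choose them. Between AngII and Control, where 13.4% of all genes were called, their values are a description only. The differences were 0.30 for Gid8 (SE 0.30), 0.39 for Wdr35 (SE 0.21), -0.33 for Cacnb3 (SE 0.21) and 0.30 for Slc39a11 (SE 0.15). For Wdr35 that sign depended on Wdr35-202: over rows in all 15 files the difference was -0.36 (SE 0.34).

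**Figure D3:**
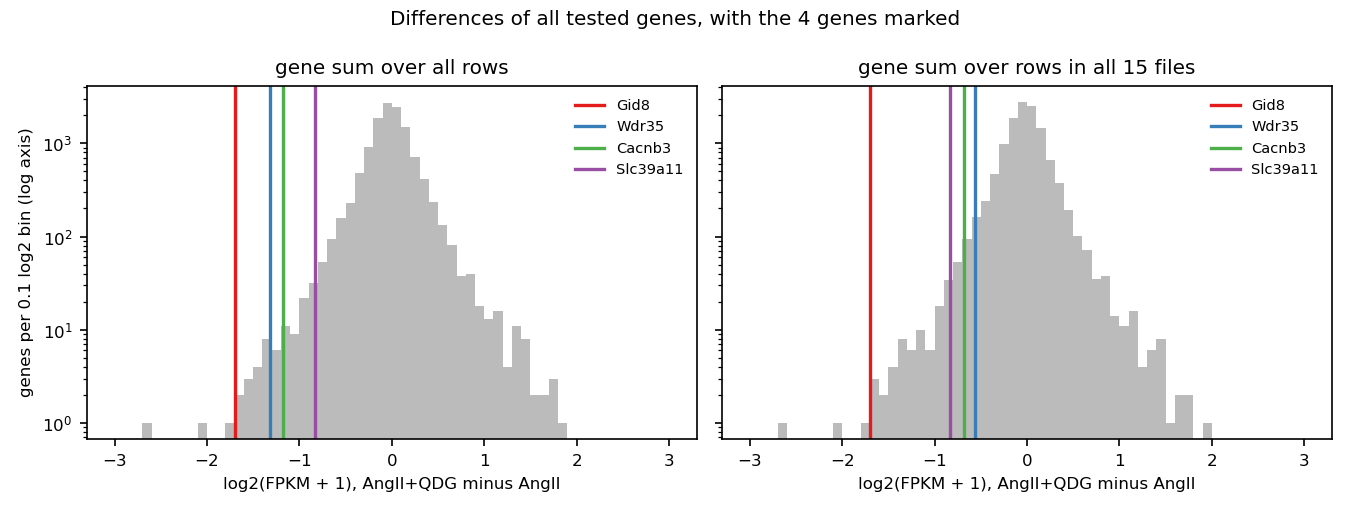
Number of tested genes (log axis) by the difference of mean log2(FPKM + 1) between AngII+QDG and AngII, with gene sums over all rows (left) and over rows in all 15 files (right), and lines at the 4 genes. Gid8 at -1.69 and Slc39a11 at -0.83 have the same place in both panels, while Wdr35 moves from -1.32 to -0.56 and Cacnb3 from -1.18 to -0.68.

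Row sets that differ between groups touched other genes, in both directions. The Control and AngII files held 31685 rows each and the AngII+QDG files 31734, with 29996 in all files. A named transcript found only in Control and AngII files added to 795 tested genes (6.49%). In the 710 of these with no transcript found only in AngII+QDG files, the median difference between AngII+QDG and AngII was -0.14, against -0.03 over rows in all 15 files. In the 949 tested genes with a transcript found only in AngII+QDG files it was 0.11. It was -0.02 in the 10599 genes with all rows in common. Of the 100 genes with the lowest difference, 20 had such a transcript, Wdr35 and Cacnb3 among them.

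No partner of the 4 genes was called between AngII+QDG and AngII, where no gene at all was (0.0% of 12258), so these counts are the same as the background: 0 of 11 CTLH complex partners, 0 of 26 intraflagellar transport genes, 0 of 10 calcium channel genes, 0 of 13 zinc transporters and 0 of 4 zinc buffer genes. At an unadjusted p under 0.05 the count was 1, Cacna1h, beside 4.72% of all genes, and limma voom called none of them. Median differences were -0.05, 0.04, 0.04, -0.05 and -0.20 in that order, beside -0.02 over all genes. The lists were chosen by function and hold none of the 4 genes. Limma p-values here weigh a group difference against the spread between these libraries, 5 mice per group by the series' own account. AngII and AngII+QDG share the Control libraries in the comparisons that follow.

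Among the 11 CTLH partners, 2 rose and 1 fell in both AngII and AngII+QDG relative to Control. Over all genes, 11.9% rose and 1.48% fell in AngII, and 16.1% rose and 3.31% fell in AngII+QDG. Under median scaling the CTLH count in AngII+QDG was 1 higher and 2 lower. Armc8, an armadillo-repeat scaffold of the complex, had a mean of 2.41 ± 0.717 FPKM among Control libraries, and means of 0.816 ± 0.422 and 1.09 ± 0.401 under AngII and AngII+QDG (SD, n = 5 each). It fell by 0.91 in AngII (SE 0.19, limma adjusted p = 0.0148) and by 0.70 in AngII+QDG (SE 0.19, limma adjusted p = 0.0193). Gid4, a substrate receptor, rose from 7.42 ± 1.54 FPKM to 10.6 ± 1.40 and 11.2 ± 0.994 (limma adjusted p = 0.0388 and 0.0140). Ranbp9, another scaffold, rose from 5.41 ± 1.36 FPKM to 7.76 ± 1.06 and 8.29 ± 0.559 (limma adjusted p = 0.0457 and 0.0160). Wdr26, a substrate-binding subunit, measured 4.57 ± 2.10, 10.1 ± 1.65 and 9.28 ± 4.59 FPKM and was not called (limma adjusted p = 0.0993 and 0.213). The list's median differences from Control were 0.41 in AngII and 0.46 in AngII+QDG, beside 0.20 and 0.18 over all genes.

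Of 26 tested intraflagellar transport genes, 1 rose in each comparison with Control, beside 11.9% and 16.1% of all genes that rose. Kif3a, a motor subunit of kinesin-II that carries cargo outward along cilia, measured 1.26 ± 0.287, 2.60 ± 0.436 and 2.36 ± 0.447 FPKM in the 3 groups, in the order Control, AngII, AngII+QDG. It rose by 0.67 in AngII (SE 0.13, limma adjusted p = 0.0135) and by 0.57 in AngII+QDG (SE 0.13, limma adjusted p = 0.0106). Its transcripts alternated too: Kif3a-201 was listed at 0 in all 5 Control libraries and gave 1.85 to 3.07 FPKM in AngII. Ift27, Traf3ip1 and Ttc21b, all needed for ciliary traffic, were not called (limma adjusted p = 0.0618, 0.0854 and 0.0920 between AngII+QDG and Control). Differences for the list in AngII+QDG relative to AngII ran from -0.27 to 0.36.

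Among the 10 tested calcium channel genes none was called in AngII relative to Control, beside 13.4% of all genes. In AngII+QDG 1 of 10 fell and none rose, beside 3.31% and 16.1% of all genes. The gene that fell was Cacna1h, the pore of a T-type channel. Its sum was 0.614 to 2.76 FPKM in Control, 0.222 to 2.10 in AngII, while in AngII+QDG it was listed at 0 in 2 libraries and reached at most 1.02. The difference was -1.10 (SE 0.28, limma adjusted p = 0.0164) from Control and -0.90 (SE 0.28, limma adjusted p = 0.745) from AngII. As with Wdr35 and Cacnb3, rows bore on it: Cacna1h-201 and Cacna1h-204 were listed only in Control and AngII files, and over rows in all 15 files the first difference was -0.31 (limma adjusted p = 0.445). The paralog Cacnb1 measured 2.38 ± 1.13, 2.46 ± 0.0936 and 1.78 ± 0.845 FPKM. Cacnb2 measured 1.96 ± 1.49, 1.50 ± 2.80 and 5.01 ± 5.51 FPKM and was not called between AngII+QDG and AngII (difference 1.13, SE 0.70, limma adjusted p = 0.998). Cacnb4 was not among the genes tested. Gem and Rrad, small GTPases that bind beta subunits, and Cacna1c, the pore of the cardiac L-type channel, were not called (smallest limma adjusted p = 0.0600, 0.193 and 0.133).

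Of 13 tested zinc transporters, 4 rose in AngII and 5 in AngII+QDG relative to Control, and none fell, beside 11.9% and 16.1% of all genes that rose. Slc30a5, which loads zinc into the secretory pathway, measured 3.18 ± 0.616, 4.88 ± 0.395 and 5.05 ± 0.413 FPKM (limma adjusted p = 0.0219 and 0.00814). The importer Slc39a10, of the same family as Slc39a11, measured 0.837 ± 0.0799, 1.41 ± 0.343 and 1.68 ± 0.364 FPKM (limma adjusted p = 0.0489 and 0.00923). Slc30a4, an exporter of vesicles, was called in both (limma adjusted p = 0.0239 and 0.0162), the importer Slc39a6 in AngII (0.0236, limma) and Slc30a1 and Slc30a9 in AngII+QDG (0.0247 and 0.0341, limma). All 13 differences were above 0 in AngII and 10 of 13 in AngII+QDG. Their medians were 0.40 and 0.28, beside 0.20 and 0.18 over all genes. Slc39a11 itself, chosen for its low AngII+QDG values, had 0.30 in AngII and -0.53 in AngII+QDG. Among zinc buffer genes, the metallothionein Mt1 fell in AngII+QDG from 461 ± 109 to 284 ± 46.9 FPKM (difference -0.68, SE 0.16, limma adjusted p = 0.0122). Mtf1, the zinc-sensing transcription factor of metallothionein genes, measured 1.38 ± 0.902 FPKM in Control and 2.76 ± 0.638 in AngII+QDG and was not called (limma adjusted p = 0.0715).

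Most of these partner calls were lost when libraries were left out. Without Control 3 and Control 5, the 2 libraries with the most short against long transcript signal, 0 CTLH partners, 0 intraflagellar transport genes and 0 zinc transporters were called in AngII, and 0, 0 and 2 in AngII+QDG, the latter being Slc30a5 and Slc39a10. Several differences in AngII stayed about as large without them although the call was lost: -0.85 for Armc8 (limma adjusted p = 0.0622), 0.48 for Slc30a4 (0.0873), 0.43 for Slc39a6 (0.0855) and 0.39 for Slc39a10 (0.135). Leaving out AngII 2 or AngII 5 alone also left 0 zinc transporters called in AngII, and leaving out AngII 1, 2, 4 or 5 left 1 CTLH partner. Calcium channel genes called without Control 3 and Control 5 were Rrad in AngII, and Rrad and Cacna1h in AngII+QDG, all lower. With that signal as a covariate no CTLH, intraflagellar transport, calcium channel or zinc transporter gene was called. It was 0.98 to 1.40 log2 units in Control, 0.77 to 0.96 in AngII and 0.64 to 0.89 in AngII+QDG. Every Control library lay above every other library, so this covariate cannot be separated from the difference from Control. Nothing is read from the calls lost with it, and the part of this signal in the results was not tested. Under quantile and median scaling, which took the median of all genes in AngII from 0.20 to -0.01 and -0.03, no zinc transporter was called in AngII and the CTLH rises ended there too, while Armc8 remained called. In AngII+QDG those scalings left 1 and 2 zinc transporters higher, and Ift27 was called lower under both. Intraflagellar transport genes then numbered 0 higher and 2 lower under quantile and 1 higher and 3 lower under median scaling.

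**Figure D4:**
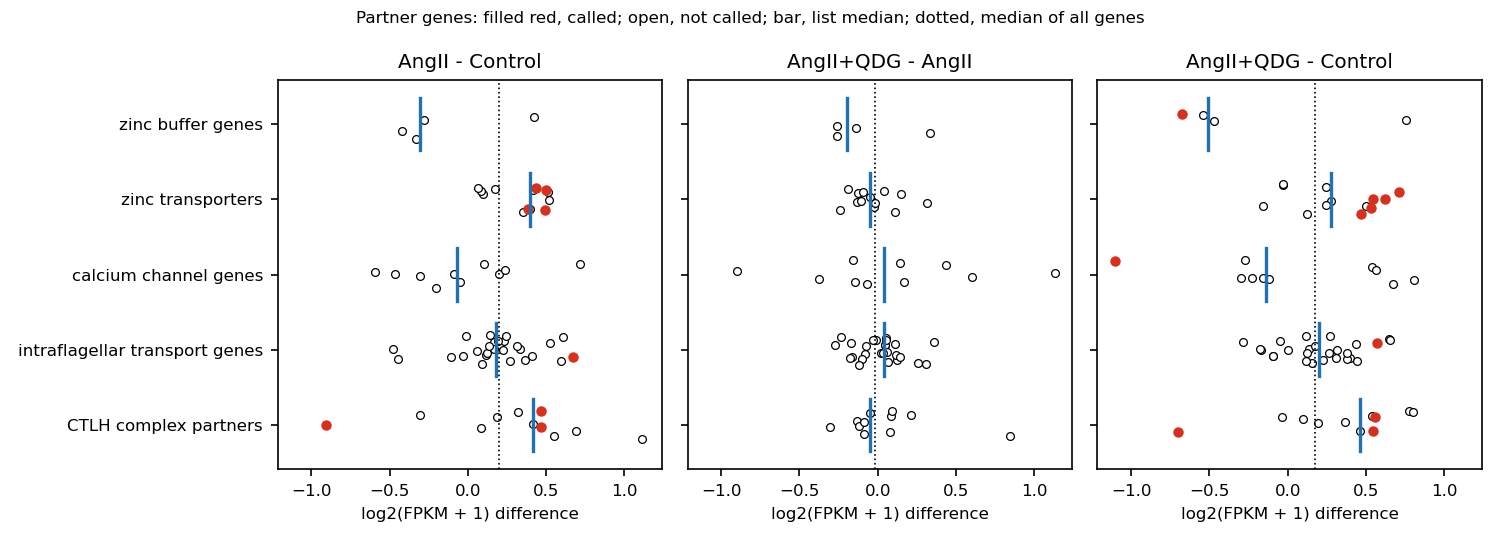
Differences of mean log2(FPKM + 1) for the tested members of 5 lists in the 3 comparisons, with called genes in red, list medians as bars and the median of all genes dotted; vertical scatter within a list has no meaning. No gene is red in the middle panel, AngII+QDG minus AngII, where the median of all genes is -0.02.

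The 16 neighbours of the 4 genes were the 2 nearest tested coding genes on either side. They differed between AngII+QDG and AngII by -1.25 to 0.89, with a median of 0.02. Some lay far off, with Osr1 541 kb from Wdr35, and Kcnj2 and Map2k6 2168 and 2719 kb from Slc39a11. Of the 16, 0 were called, as over all genes (0.0%), and 0 lay apart and lower, beside 0.799% of all genes. Dido1, which starts 118 bp from Gid8 on the opposite strand, measured 1.33 ± 0.677 FPKM in Control and 2.64 ± 0.474 in AngII+QDG, with 1 AngII library at 0. Ddx23, an RNA helicase gene that ends 605 bp beyond Cacnb3 on the opposite strand, was the lowest neighbour, lower in this difference than Cacnb3 and Slc39a11, at 8.46 ± 6.03 FPKM in AngII and 2.44 ± 1.52 in AngII+QDG with overlap (difference -1.25, SE 0.57, limma adjusted p = 0.998). Cog1 spans chr11:113649169-113667054 and overlaps the annotated span of Slc39a11 on the opposite strand. The listed transcript Slc39a11-201 spans chr11:113244853-113565768 and does not overlap Cog1. Cog1 measured 3.63 ± 1.31, 2.68 ± 1.63 and 3.21 ± 1.80 FPKM. Against Control, 1 of the 16 neighbours was called higher in AngII and 2 in AngII+QDG, and none was called lower. Over all genes, 11.9% and 16.1% were called higher. The neighbours called were Ythdf1, 185.6 kb from Gid8, in AngII and AngII+QDG (limma adjusted p = 0.0164 and 0.0236), and Ccnt1, 59.9 kb from Cacnb3, in AngII+QDG (limma adjusted p = 0.0251). Without Control 3 and Control 5 none of these 3 calls held.

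Genes with the most similar pattern over the 15 libraries, by Pearson's r of log2(FPKM + 1) over rows in all files, differed for each of the 4. For Gid8 they were Unc50 (r = 0.79), Hba-a2 (0.76), an alpha globin gene of red cells, and Fam89b (0.75). Hba-a2 had means of 836 FPKM in AngII and 89.6 in AngII+QDG, a difference of -2.65 (SE 0.80), larger than that of any of the 4 genes and not called (limma adjusted p = 0.696). The 5 red cell markers, Hba-a2 among them, had a median difference of 0.002 between AngII+QDG and AngII. The part of Hba-a2 in the Gid8 values was not tested. For Wdr35 they were Klf2 (0.77), a transcription factor of endothelium, Mapk8ip1 (0.76) and Rps19bp1 (0.76). For Cacnb3 they were March9 (0.82), Pirt (0.81) and Slc35e4 (0.81), and for Slc39a11 Dkc1 (0.87) and Plp2 (0.81). No gene named here recurs between the 4. Each is from the top of a search over all tested genes in libraries that share groups, so these r describe likeness only.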

How the data were processed

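Per the labels' protocols, Trizol was used on heart tissue, and NEB kits removed rRNA and built the 15 libraries. The submitters' processing notes name GRCm38 and limma. Neither aligner nor quantifier is given in the sources read. The authors deposited 1 table per library, read as FPKM per transcript; the headers do not state the unit, which was inferred from the values. Of 24789 Ensembl rows, 24756 were named with GENCODE M21 and summed to genes, and 8634 assembled rows without a gene name were left out. Values rose in whole steps, from which fragments and depth were recovered. Of all values above 0, 97.0 to 97.2% per library lay within 0.1 of a whole number. Of low values, up to 10 fragments, 99.0 to 99.7% did.

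Tests used limma 3.58.1 (R 4.3.3) on log2(FPKM + 1), with a trend and robust variance, all 15 libraries in 1 fit with 12 residual degrees of freedom, and Benjamini-Hochberg adjustment over all 12258 genes at 0.05. Called means an adjusted p under 0.05. The steps were tested on simulated data. The 4 genes, the lists and the tests were chosen with earlier results of these data known. Named were the 4 genes, of each list all called genes and up to 4 with the smallest p, the Cacnb3 paralogs, 2 neighbours a side and the 3 most similar genes. A gene that this choice includes is left out of the text. Alternatives were other pseudocounts, no filter, quantile and median scaling, rows in all files, a replicate block, 2-group fits, the short-against-long balance (2277 transcripts under 1000 nt, 6255 of at least 3000 nt), Control 3 and 5 left out and each library left out; voom and a fit of transcripts were chosen after seeing the data. Promoters came from RefSeq (GRCm38.p6) and matched all 4 genes. Tables and plots used matplotlib 3.10.9, pandas 2.3.3 and numpy 2.4.6 under Python 3.11.15.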

Additional observations from a re-analysis of the deposited data

Results flagged for a closer look

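Of 12 groups of 5 libraries tested (4 genes in 3 groups), 2 held a library whose gap to the nearest other, divided by the whole range, exceeded 0.71. Cacnb3 had 0.125 FPKM in AngII+QDG 5 and was listed at 0 in the other 4 AngII+QDG libraries. Slc39a11 had 0.640 FPKM in AngII+QDG 3 and was listed at 0 in the other 4. Chance flags about 1 in 20 groups, and a group with 4 values at 0 is always flagged by its highest library. The genes were chosen for low values in these libraries.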

How the results depend on the processing

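The choice of the 4 genes fixes their direction in AngII+QDG, so its keeping under other settings is no sign of stability. In AngII against Control, Gid8 kept its direction in 25 and Wdr35 in 24 of 26 alternatives. With a pseudocount of 0.1 FPKM, AngII+QDG minus AngII was -3.18 for Wdr35, -3.48 for Cacnb3 and -2.82 for Slc39a11, and the differences from Control were -2.59, -4.08 and -2.19; Slc39a11 in AngII was 0.63. With 0.5 FPKM the values were -1.85, -1.76 and -1.31 from AngII and -1.37, -2.20 and -0.89 from Control. With voom on fragments they were -5.97, -7.48 and -6.83 from AngII and -5.38, -8.15 and -6.08 from Control, with 0.74 for Slc39a11 in AngII. Over rows in all 15 files Wdr35 was -0.36 in AngII, and Wdr35 and Cacnb3 were -0.56 and -0.68 from AngII, with Cacnb3 -0.91 from Control. With the short-against-long covariate Wdr35 was -0.16 in AngII and -1.54 from Control in AngII+QDG. Under quantile normalization Wdr35 was 0.13 and Slc39a11 0.08 in AngII. The causes were not tested.

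Genes called between AngII+QDG and AngII numbered 1 with a pseudocount of 0.1 FPKM (Cacnb3), 1 with the covariate (Wdr35) and 1 with voom (Thsd7a). With each library left out they ranged from 0 to 1: Cacnb3 without AngII 4, Wdr35 without AngII+QDG 4, Slc39a11 without AngII+QDG 3 and Arhgap5 without AngII 2. Calls of the 4 genes here are on the values that chose them, and nothing is read from them. Of 1639 genes called in AngII against Control, 1458 were higher and 181 lower. Quantile normalization gave 818 (406 higher, 412 lower) and median scaling 1341 (455 and 886). The 2-group fit gave 317, Control 3 and 5 left out 97, the covariate 0 and transcripts instead of genes 748. Of 2377 genes called in AngII+QDG against Control, 1971 were higher and 406 lower. Quantile normalization gave 983 higher and 999 lower, and median scaling 990 and 1696. The 2-group fit gave 1448 genes, Control 3 and 5 left out 1202, and the covariate 0. Since the covariate cannot be separated from the difference from Control, nothing is read from its counts against Control.

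Among the lists in AngII, quantile and median scaling and the 2-group fit left 1 CTLH partner; zinc transporters fell to 0, 0 and 1. Control 3 and 5 left out gave 0 for CTLH, intraflagellar and zinc genes, and the covariate gave 0 for all 3. Calcium channel genes numbered 1 under median scaling and 1 without Control 3 and 5. In AngII+QDG against Control, quantile normalization gave 2 intraflagellar (0 higher, 2 lower), 2 calcium channel (both lower) and 1 zinc gene (higher), and median scaling 4 (1 higher, 3 lower), 3 (all lower) and 2 (both higher). Rows in all 15 files and voom gave 0 calcium channel genes, and the 2-group fit 3 zinc transporters. Without Control 3 and 5 there were 0 CTLH, 0 intraflagellar, 2 calcium channel and 2 zinc genes, and the covariate gave 0 in all 4 lists.

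With each library left out, genes called ranged from 316 to 2488 in AngII and from 1452 to 3022 in AngII+QDG against Control. CTLH partners ranged from 1 to 4 in AngII, where Control 1, 2, 3 or 5 or AngII 1, 2, 4 or 5 left out gave 1, and from 3 to 4 in AngII+QDG. Zinc transporters ranged from 0 to 5 in AngII, with 0 without AngII 2 or AngII 5 and 2 without AngII 4, and from 3 to 5 in AngII+QDG, with 3 without Control 3 or 5 or AngII+QDG 1, 4 or 5. Intraflagellar transport genes ranged from 1 to 6 in AngII+QDG, with 2 without Control 1 or AngII+QDG 4 and 6 (5 higher, 1 lower) without Control 4. Calcium channel genes ranged from 0 to 1 in AngII and 1 to 2 in AngII+QDG, with 2 without Control 1, 4 or 5.

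Replicate numbers did not pair the libraries: 0 of 15 same-numbered pairs had r over 0.1 (-0.10 to 0.09). With a replicate block, 516 genes were called in AngII against Control, 1 of them a CTLH partner and 0 zinc transporters.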
